A study of Homo sapiens with 51 samples.

Results

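The ATF4 amino acid response genes were followed through 51 bulk RNA-seq libraries of human pancreatic ductal adenocarcinoma (PDA) cell lines. The set was a list of 41 named genes out of 25421 gene symbols in the count table, and all 41 were found there. The list was selected on measured values: it was noticed through the genes with the smallest p-values between PANC1 cells given a control virus and untreated PANC1 cells. The PANC1 values are therefore a description. Counts of members past the edgeR threshold in PANC1 only say where these libraries lie; they are no test of the list, no p-value is given for them, and nothing is read from them or from their all-gene shares. KP4, PK45H, HPAFII and PATU8988S did not choose the list, and the tests below compare groups of those lines. In the tests between KP4 and PK45H and among untreated lines, the spread was estimated with PANC1 libraries included. Those p-values are therefore not independent of the libraries that chose the list.

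ATF4 is a basic leucine zipper transcription factor at the end of the integrated stress response. When amino acids run short, when unfolded protein builds up in the endoplasmic reticulum, or when double-stranded RNA or heme deficiency is sensed, a kinase phosphorylates the initiation factor eIF2. General translation then falls while the ATF4 message is translated more. ATF4 pairs with C/EBP-family partners on composite C/EBP-ATF elements, also called amino acid response elements, and raises genes for serine and asparagine synthesis, amino acid import and tRNA charging. Its later targets, DDIT3, TRIB3 and CHAC1 among them, limit the response or move cells towards death. PDA cells are known to use this pathway when nutrients are scarce.

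The study put the open reading frame of OVOL2, a zinc-finger transcription factor that favours the epithelial state, into PDA lines with a lentivirus. KP4, PANC1 and PK45H each gave 5 groups of 3 libraries: untreated cells, cells with a virus for mCherry (a fluorescent protein used as the control), cells with mCherry and a virus for M2rtTA, cells with OVOL2, and cells with OVOL2 and M2rtTA. M2rtTA is the transactivator that doxycycline switches on at tetracycline-inducible promoters. HPAFII and PATU8988S gave 3 untreated libraries each. Virus went on at a multiplicity of infection of 2 with 8 µg/ml polybrene. Puromycin, an inhibitor of translation used to select transduced cells, followed at 2.5 µg/ml on the next day together with 0.6 µg/ml doxycycline, and RNA was taken after 6 days. The labels do not say whether untreated cells received polybrene, puromycin or doxycycline, so virus, drug and insert cannot be told apart in a comparison with untreated cells. Every OVOL2 group was compared with the mCherry group that had the same viruses besides the insert. The labels give triplicates but do not say whether they were separate cultures, so p-values measure the spread between these libraries, which may be technical.

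Libraries held 3367089 to 7490556 counts in PANC1, 3727440 to 6503286 in KP4, 2439323 to 7146812 in PK45H, 3817546 to 5089662 in PATU8988S and 1165399 to 3983186 in HPAFII, whose replicate 2 was the shallowest of all. Levels are in CPM, counts scaled to a common library size by trimmed means over all libraries. PLATE-seq counts 3′ ends, so a level does not depend on transcript length in the usual way, and levels are compared between groups of the same gene only. The transduced OVOL2 itself gave at most 62 counts per library. With M2rtTA it reached mean levels of 4.99 CPM in KP4, 2.15 CPM in PANC1 and 4.53 CPM in PK45H. Its levels in the OVOL2 groups without M2rtTA are not given here. A 3′-end count need not cover an open reading frame carried by a virus. Summed ductal keratins KRT7, KRT8, KRT18 and KRT19 ran from 574 to 13616 CPM, while the summed acinar list stood at 13.8 to 72.8 CPM, endocrine at 0 to 1.81, immune at 1.5 to 43.4 and endothelial at 3.07 to 13.7. The acinar sum was mostly CPB1, at 13.5 to 72.8 CPM. PRSS1 of that list reached at most 7.25 CPM and was called higher with OVOL2 in PK45H, with and without M2rtTA. In a bulk library, a change in the share of cells that express a gene and a change in RNA per cell cannot be told apart.

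Some members are uncertain. CBS, which condenses serine with homocysteine, has a near-identical copy, CBSL, that reached 329 counts in a library against at most 81 for CBS. CBS stays in the counts of members below wherever it was tested or ranked, so those counts include this uncertain gene. For MTHFD2 the pseudogene MTHFD2P1 reached 289 counts against 1366. In the GENCODE annotation of GRCh38, 10 of the 41 members overlap another coding gene. MARS1 (chr12:57475445-57517569) and DDIT3 (chr12:57516588-57521737) run towards each other on opposite strands and overlap at their 3′ ends; the strand used in counting is not given in the sources used here. Single libraries stood far from their group for SLC7A11 and VLDLR in PANC1 OVOL2 replicate 2, for VLDLR in PANC1 untreated replicate 2 and for CBS in PANC1 mCherry + M2rtTA replicate 2.

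Promoters were read from RefSeq on GRCh38.p14, 250 bases before to 50 after each start, for the 35 members in the table. The motif searched was TGATGNAAN on both strands, the core of the C/EBP-ATF element. It stood in 13 of the 35 members (37.1%) and in 1215 of 27305 genes (4.45%). The members are listed as ATF4 response genes, and this element is already known from ASNS among them. A higher share was therefore likely beforehand, and it is no support for the list. Counted over promoters rather than genes, the share was 3.61% of 35116. Of the 12 members in the table that were higher by 1 or more on the log2 scale in PANC1 with mCherry, 3 held it. TRIB3, PCK2 and STC2, in the table and also above 1, did not. The 3 that did are shown first to print the motif in its setting; each is printed 5′ to 3′ on the motif's strand with the motif in capitals.

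ASNS, chr7:97872422-97872521, minus strand: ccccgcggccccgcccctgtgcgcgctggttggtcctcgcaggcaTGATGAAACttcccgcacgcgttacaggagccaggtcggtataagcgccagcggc

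CHAC1, chr15:40953221-40953315, minus strand: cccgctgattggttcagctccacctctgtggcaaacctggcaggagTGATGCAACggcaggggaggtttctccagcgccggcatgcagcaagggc

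SLC1A4, chr2:64989346-64989418, minus strand: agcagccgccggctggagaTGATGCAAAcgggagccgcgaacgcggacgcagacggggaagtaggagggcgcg

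The ASNS motif, 68 to 60 bases before the start, is the nutrient-sensing element long known from that gene. The CHAC1 match lay 210 to 202 bases before the start on the opposite strand, and the SLC1A4 match lay across the start. Shorter windows follow for some of the members whose changes are described below. They were chosen after their values were seen, so nothing is read from which are shown. Over all members, 8 of the 13 matches read TGATGCAA and 3 read TGATGAAA, GARS1 among the latter. ATF3, also described below, reads TGATGGAA and is not shown.

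AARS1, chr16:70289670-70289710, plus strand: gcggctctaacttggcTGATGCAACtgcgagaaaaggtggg

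CEBPG, chr19:33374055-33374095, plus strand: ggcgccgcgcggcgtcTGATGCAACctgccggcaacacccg

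GARS1, chr7:30594828-30594868, minus strand: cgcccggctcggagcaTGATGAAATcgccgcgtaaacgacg

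JDP2, chr14:75427990-75428030, plus strand: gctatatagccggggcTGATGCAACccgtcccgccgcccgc

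MARS1, chr12:57488047-57488087, minus strand: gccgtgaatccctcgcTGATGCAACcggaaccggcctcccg

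SLC1A5, chr19:46784887-46784927, minus strand: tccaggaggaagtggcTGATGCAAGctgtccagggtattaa

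A match is a description of letters, not of binding. With only the bases before the start, the share was 8 of 35 members (22.9%) against 3.87% of all genes. No match stood in the serine, glycine and one-carbon enzymes of the table, which lacks PSPH, SHMT2 and ALDH1L2; NUPR1, GPT2 and SLC7A11 were also not in it.

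In PANC1, the control virus went with higher levels across nearly all roles of the list. With mCherry, 36 of 41 members were above untreated, and the median difference was 0.70 on the log2 scale. In 30 members all 3 mCherry libraries lay above all 3 untreated libraries, where 6.63% of all genes did so, and in 2 members all lay below, where 8.9% did. As a description of the libraries that chose the list, 13 members lay past the edgeR threshold as higher and 0 as lower, where 0.272% of 13218 genes were higher and 0.325% lower. The members' summed share of all counts was 0.213% to 0.241% in untreated libraries and 0.343% to 0.349% with mCherry. In the same libraries the mitochondrially encoded share of counts was 25.8% to 27.0% untreated and 22.5% to 25.9% with mCherry; its part in the result was not tested.

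**Figure D1:**
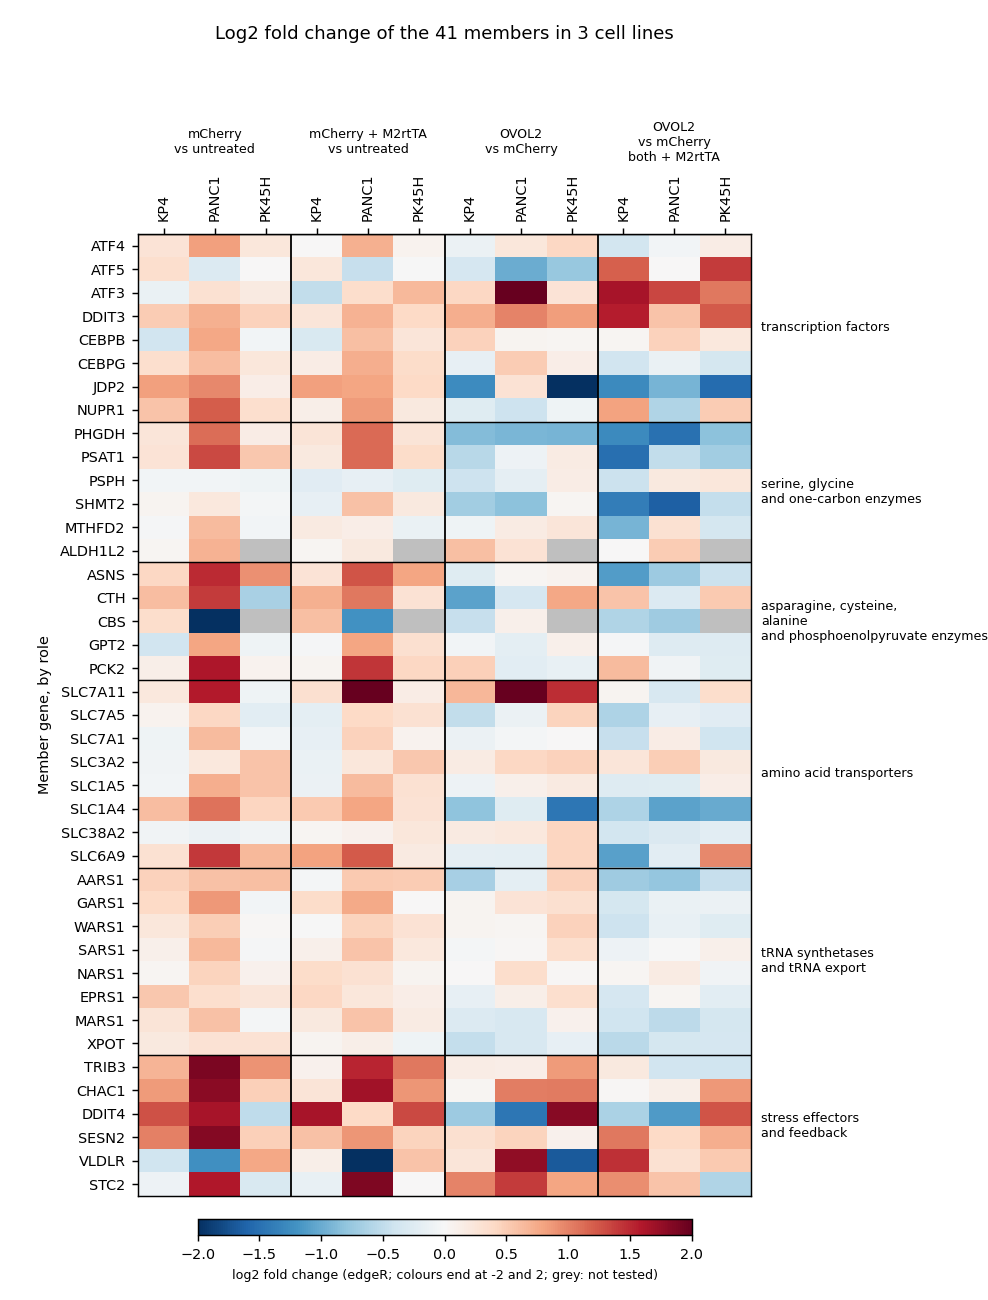
Heatmap of edgeR log2 fold changes of the 41 members (rows, by role) in KP4, PANC1 and PK45H (columns) for 4 comparisons; red is higher, blue lower, grey not tested, and colours end at -2 and 2. The PANC1 column of mCherry against untreated is red in 36 of 41 rows, while the OVOL2 columns hold both colours.

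Among the PANC1 stress effectors, TRIB3 (chr20:362835-397559), a pseudokinase that binds ATF4 and damps it, read 11.1, 7.76 and 11.5 CPM untreated and 35.4, 35.7 and 39.4 CPM with mCherry, a log2 difference of 1.88 (SE 0.19). CHAC1 (chr15:40952962-40956519), which degrades glutathione, read 24.9, 26.0 and 17.6 CPM untreated and 92.2, 75.7 and 69.4 CPM with mCherry, a difference of 1.80 (SE 0.20). STC2 (chr5:173314713-173329503), a secreted glycoprotein, read 11.1, 19.9 and 13.8 CPM untreated and 35.6, 55.5 and 43.4 CPM with mCherry, a difference of 1.60 (SE 0.24). In none of the 3 genes did the groups overlap. SESN2, an inhibitor of mTORC1 signalling, rested on uneven libraries at 22.8, 52.6 and 13.1 CPM with mCherry against 5.89, 9.36 and 10.1 CPM untreated. VLDLR, a lipoprotein receptor, was uneven in both groups: PANC1 untreated replicate 2 held 358 CPM against 22.9 and 15.3 CPM in the other untreated libraries.

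The biosynthetic enzymes differed within their own roles. PSAT1 (chr9:78297143-78330093), the aminotransferase of serine synthesis, read 117, 96.1 and 113 CPM untreated and 263, 254 and 282 CPM with mCherry in PANC1, a log2 difference of 1.31 (SE 0.14). PHGDH (chr1:119648411-119744226), the dehydrogenase before it, read 85.7, 66.2 and 75.7 CPM against 166, 177 and 144 CPM, a difference of 1.12 (SE 0.16). The last enzyme of the same route, PSPH, differed by -0.05, and SHMT2, which turns serine into glycine in mitochondria, by 0.21. ASNS (chr7:97852118-97872542), which makes asparagine, read 56.9, 41.6 and 43.5 CPM untreated and 123, 129 and 143 CPM with mCherry, a difference of 1.50 (SE 0.16). PCK2 (chr14:24094053-24110598), the mitochondrial phosphoenolpyruvate carboxykinase, read 6.12, 6.85 and 6.04 CPM against 18.7, 16.9 and 22.6 CPM, a difference of 1.62 (SE 0.23). Groups were apart in all 4 of PSAT1, PHGDH, ASNS and PCK2.

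ATF4 itself (chr22:39519695-39522685) read 161, 153 and 162 CPM in untreated PANC1 and 273, 255 and 307 CPM with mCherry, a log2 difference of 0.83 (SE 0.15). NUPR1, a small stress-induced chromatin protein, read 26.7, 26.9 and 32.2 CPM against 68.3, 55.4 and 72.9 CPM, a difference of 1.21 (SE 0.18). ATF5, a related factor, was the other way at -0.27, and its mCherry libraries at 28.4 to 33.1 CPM all lay below the untreated ones at 35.6 to 40.0 CPM. All 8 tRNA genes (7 synthetases and XPOT, the tRNA exporter) had every mCherry library above every untreated one, with log2 differences from 0.29 for XPOT to 0.87 for GARS1. GARS1, the glycyl synthetase, read 96.8, 105 and 94.1 CPM against 186, 151 and 196 CPM. Of the transporters, SLC1A4, which carries alanine and serine, read 7.93, 10.05 and 9.79 CPM against 21.0, 17.8 and 19.7 CPM, and SLC1A5, which carries glutamine, 45.5, 41.3 and 45.5 CPM against 64.3, 75.4 and 77.7 CPM. SLC7A11, the cystine importer, read 12.01, 15.8 and 8.06 CPM against 29.98, 28.4 and 48.2 CPM. SLC6A9, a glycine carrier, read 3.40, 2.28 and 6.04 CPM against 8.34, 9.16 and 12.7 CPM. SLC38A2, another amino acid carrier, differed by -0.12.

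The libraries with mCherry + M2rtTA were compared with the same untreated libraries that chose the list, so they are no second support for it. There 37 of 41 members were above untreated, with a median of 0.60, and 25 had all libraries above, where 6.32% of all genes did. Past the threshold as higher were 9 members, where 0.189% of all genes were, and these 9 (ASNS, CHAC1, GARS1, PCK2, PHGDH, PSAT1, SLC1A5, STC2 and TRIB3) were all among the 13 without M2rtTA. The count of 13 without M2rtTA was 7 when PANC1 untreated replicate 1 was left out and 8 when replicate 2 was. As a description, since the mCherry libraries chose the list, M2rtTA added to mCherry left 0 of 41 members past the threshold in edgeR. The share of all genes called was 0%, and DESeq2 also had 0 members.

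**Figure D2:**
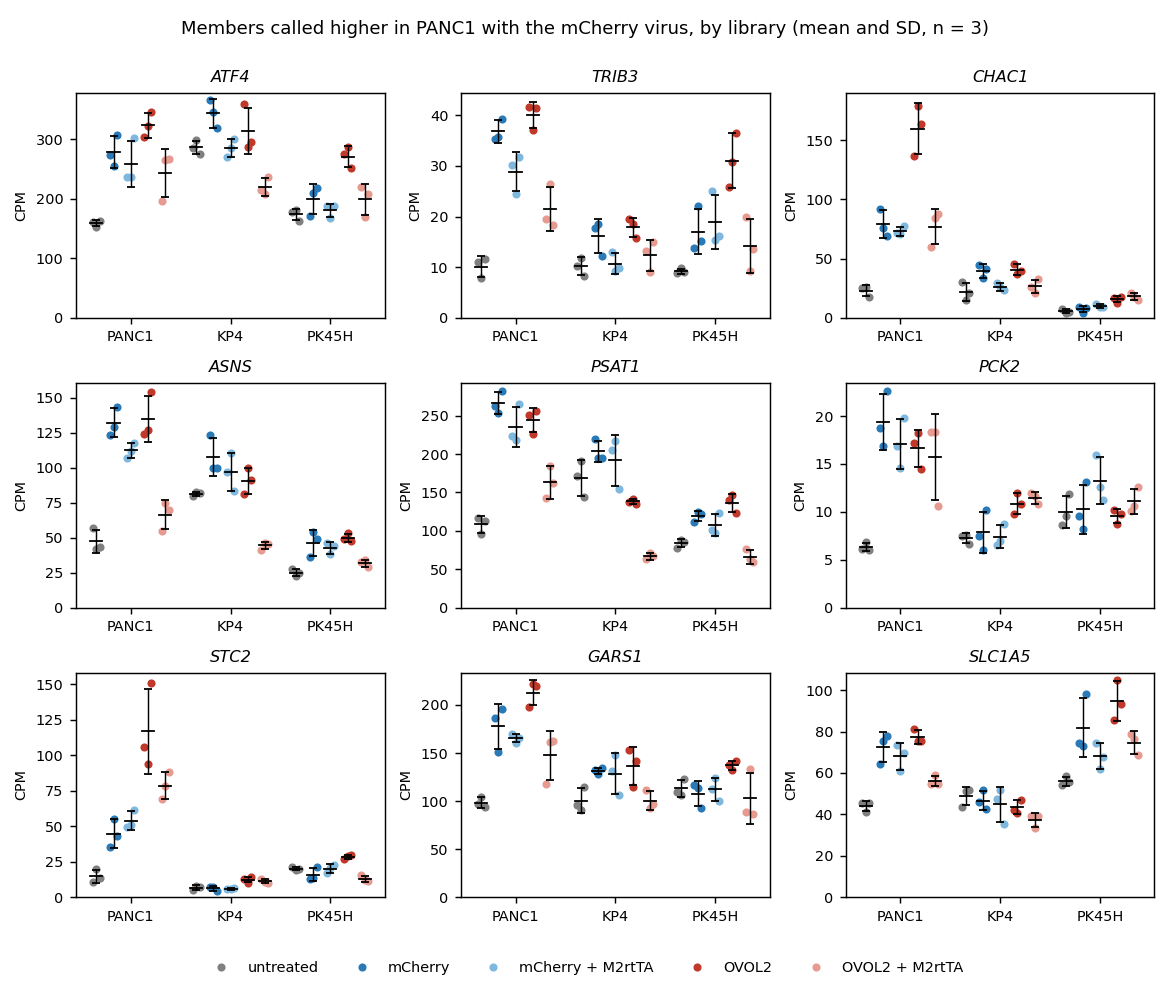
Levels (CPM, y axis from 0) of 9 members past the threshold in PANC1 with the mCherry virus, by line and group; points are libraries, horizontal bars the mean and error bars the SD (n = 3). In PANC1 the untreated TRIB3 libraries sit at 7.76 to 11.5 CPM, below the mCherry libraries at 35.4 to 39.4 CPM.

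In KP4 and PK45H the same transduction moved no member past the threshold. The edgeR test called 0 of 41 members in KP4 with mCherry, where it called 0% of 13662 genes, and 0 of 39 in PK45H, where it called 0.00736% of 13583 genes; ALDH1L2 and CBS were too low to test in PK45H. At an unadjusted p under 0.05 there were 13 members in KP4 and 8 in PK45H. DESeq2 called 0 and 1 members, where it called 11 and 22 of all genes. The share of all genes at an unadjusted p under 0.05 is not given here, so nothing is read from the unadjusted counts. Members lay above untreated in 30 of 41 cases in KP4 (median 0.24 on the log2 scale) and in 24 of 39 in PK45H (median 0.13), and the median of all genes was near 0 in both. In KP4, 18 members had all mCherry libraries above all untreated ones, where 5.74% of genes did; in PK45H, 8 did, where 4.96% of genes did. The mitochondrially encoded share of counts was 25.5% to 27.3% untreated and 21.9% to 24.1% with mCherry in PK45H, and its part in the values was not tested. The difference between PANC1 and these lines was not tested, since PANC1 chose the list.

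Single genes show what lay behind those counts. ASNS read 27.6, 22.3 and 25.0 CPM in untreated PK45H and 35.9, 54.0 and 49.0 CPM with mCherry, a log2 difference of 0.91 (SE 0.16, edgeR adjusted p = 0.12). In KP4 it read 79.8, 82.3 and 81.7 CPM against 124, 99.6 and 99.8 CPM, a difference of 0.41 (SE 0.13, edgeR adjusted p = 0.53). In both lines the groups did not overlap. TRIB3 read 8.75, 9.78 and 8.97 CPM untreated and 13.8, 22.1 and 15.2 CPM with mCherry in PK45H, a difference of 0.90 (SE 0.28, edgeR adjusted p = 0.42), and 10.2, 11.9 and 8.34 CPM against 17.8, 18.5 and 12.2 CPM in KP4, a difference of 0.68 (SE 0.23, edgeR adjusted p = 0.57). CHAC1 in KP4 read 30.4, 15.3 and 20.5 CPM against 44.7, 33.3 and 41.5 CPM. SESN2 there read 5.12, 6.37 and 6.84 CPM against 12.6, 10.3 and 13.6 CPM, a difference of 1.00 (SE 0.28, edgeR adjusted p = 0.50). Of the synthetases, AARS1 read 36.3, 47.9 and 49.5 CPM untreated and 66.1, 63.7 and 69.7 CPM with mCherry in PK45H, a difference of 0.60 (SE 0.14, edgeR adjusted p = 0.27). In KP4 EPRS1, the glutamyl-prolyl synthetase, read 52.9, 47.9 and 59.5 CPM against 91.8, 67.3 and 71.4 CPM, a difference of 0.53 (SE 0.14, edgeR adjusted p = 0.499). ATF4 differed by 0.27 (SE 0.11) in KP4 and 0.22 (SE 0.13) in PK45H, and STC2 by -0.11 and -0.30.

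With mCherry + M2rtTA against untreated, edgeR called 0 of 41 members in KP4 (0% of all genes; 5 members at an unadjusted p under 0.05) and 0 of 39 in PK45H (0.0294% of all genes, 0.0221% lower; 10 members), and DESeq2 called 1 in each. In PK45H 35 of the 39 members lay above untreated, with a median of 0.29, and 13 had all libraries above, where 6.28% of genes did. TRIB3 differed there by 1.05 (SE 0.27), CHAC1 by 0.88 (SE 0.27) and ASNS by 0.79 (SE 0.16). In KP4 29 of 41 lay above, with a median of 0.12, and 7 had all libraries above, where 6.04% of genes did. Nothing is read from the unadjusted counts of this paragraph, which have no share of all genes beside them. M2rtTA added to mCherry left 0 members past the threshold in edgeR in KP4 (0% of all genes; 5 members unadjusted) and in PK45H (0.0294%, 0.0221% lower; 4 members unadjusted), and 0 in DESeq2 in both.

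With OVOL2, members moved in both directions. In KP4 with M2rtTA, 7 members rose and 12 fell, against 9.91% and 12.5% of 13662 genes (22.4% in either direction), and the median over members was -0.35 on the log2 scale. In PK45H with M2rtTA, 3 rose and 6 fell, against 7.45% and 8.4% of 13583 genes, with a median of -0.21. The rises in PK45H were close to the share of all genes. In KP4, 10 of the 12 that fell were enzymes, transporters or tRNA genes, and 6 of the 7 that rose were transcription factors or stress effectors. The list itself holds enzyme roles of 6 and 5 members, 8 transporters, 8 tRNA genes, 8 transcription factors and 6 stress effectors. In PK45H, AARS1, PHGDH, PSAT1 and SLC1A4 fell, but so did JDP2, a transcription factor, and STC2, a stress effector. ATF5, DDIT3 and CHAC1 rose there. The split by role was not tested.

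**Figure D3:**
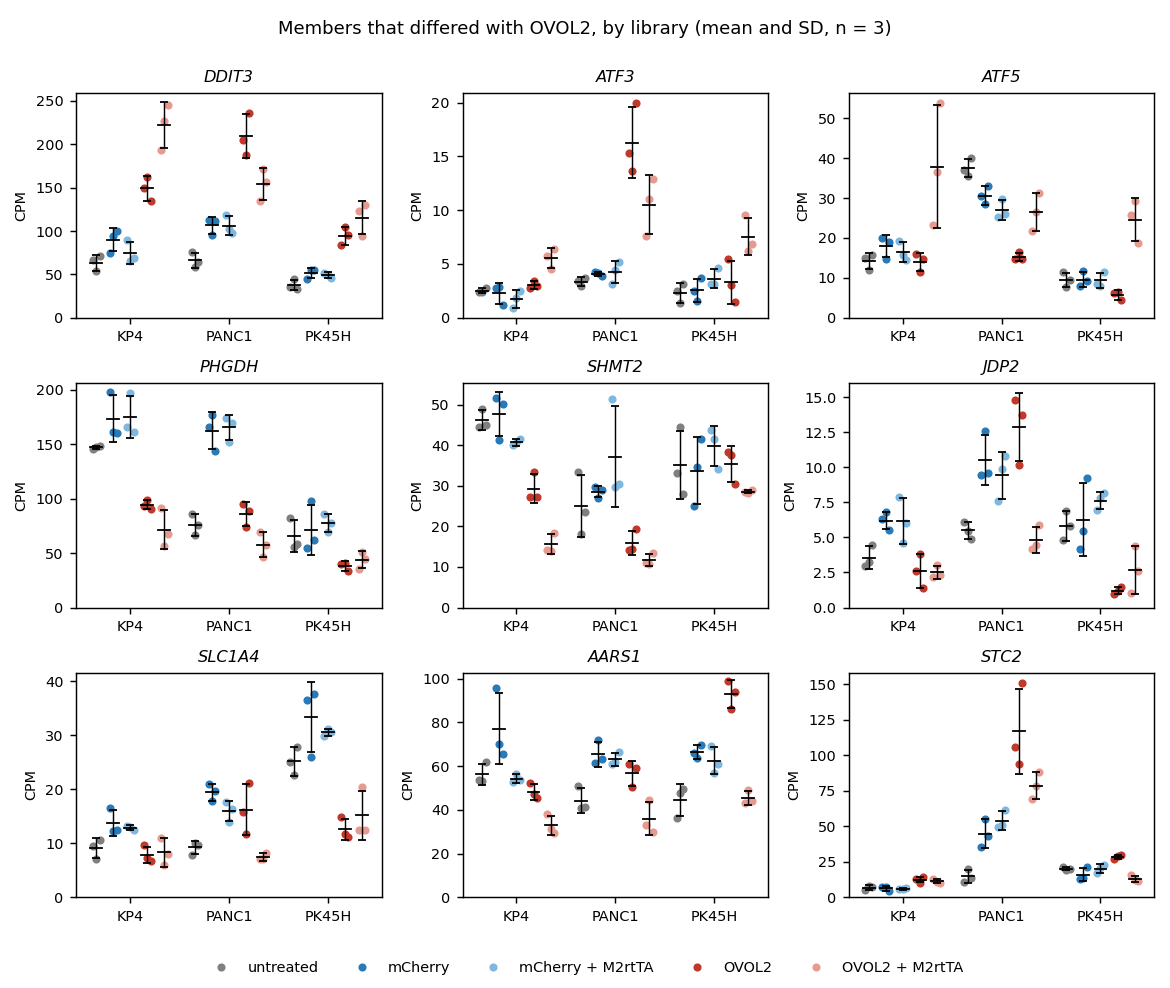
Levels (CPM, y axis from 0) of 9 members that differed with OVOL2, by line and group; points are libraries, horizontal bars the mean and error bars the SD (n = 3). DDIT3 in KP4 sits at 193 to 245 CPM with OVOL2 + M2rtTA and at 65.5 to 89.1 CPM with mCherry + M2rtTA, while PHGDH sits lower with OVOL2 in each line.

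PSAT1 and PHGDH fell in both lines. In KP4, PSAT1 read 205, 216 and 154 CPM with mCherry + M2rtTA and 62.6, 71.1 and 66.7 CPM with OVOL2 + M2rtTA, a log2 change of -1.51 (SE 0.14, edgeR adjusted p = 7.1e-06). In PK45H it read 101, 97.3 and 124 CPM against 76.8, 62.7 and 59.3 CPM, a change of -0.69 (SE 0.14, edgeR adjusted p = 0.00448). The groups did not overlap in either line. PHGDH fell in KP4 from 166, 197 and 162 CPM to 91.2, 56.6 and 67.2 CPM, by -1.28 (SE 0.16, edgeR adjusted p = 8.23e-05), and in PK45H from 86.1, 69.3 and 77.3 CPM to 35.6, 51.3 and 44.3 CPM, by -0.82 (SE 0.23, edgeR adjusted p = 0.0281). PSPH passed in neither line, at -0.43 in KP4 and 0.23 in PK45H. Of the mitochondrial one-carbon enzymes, SHMT2 fell in KP4 from 40.0, 40.4 and 41.6 CPM to 14.3, 14.02 and 18.5 CPM, a change of -1.38 (SE 0.15, edgeR adjusted p = 2.63e-05), and MTHFD2 by -0.94 (SE 0.22, edgeR adjusted p = 0.00722). In PK45H they differed by -0.47 and -0.35; the difference between the lines for SHMT2 was -0.91 (SE 0.29, edgeR adjusted p = 0.079).

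ASNS fell in KP4 from 96.5, 110 and 83.6 CPM to 41.5, 46.3 and 45.4 CPM, a log2 change of -1.12 (SE 0.13, edgeR adjusted p = 5.74e-05). In PK45H it read 46.1, 38.2 and 43.7 CPM against 32.2, 34.0 and 28.7 CPM, a change of -0.43 (SE 0.16, edgeR adjusted p = 0.086). Both sets of libraries were apart. PCK2 was the one enzyme of these roles that rose in KP4, by 0.63 (SE 0.21, edgeR adjusted p = 0.0453), and in PK45H it differed by -0.25. Of the transporters, SLC7A5, the light chain of the large neutral amino acid carrier, fell in KP4 from 73.9, 73.9 and 69.6 CPM to 45.7, 48.3 and 46.4 CPM, by -0.62 (SE 0.12, edgeR adjusted p = 0.00206). SLC1A4 fell in PK45H from 29.9, 31.1 and 30.7 CPM to 12.6, 20.5 and 12.6 CPM, by -1.01 (SE 0.20, edgeR adjusted p = 0.00458). SLC6A9 read 6.36, 5.38 and 6.54 CPM against 19.6, 7.001 and 8.77 CPM in PK45H, a change of 0.97 (SE 0.34, edgeR adjusted p = 0.0728). SLC3A2, the heavy chain that SLC7A5 and SLC7A11 pair with, passed in neither line.

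AARS1, the alanyl-tRNA synthetase, fell in both lines. It read 52.5, 56.5 and 53.9 CPM in KP4 against 37.9, 31.4 and 29.3 CPM with OVOL2 + M2rtTA, a log2 change of -0.72 (SE 0.15, edgeR adjusted p = 0.00302). In PK45H it read 69.4, 57.1 and 61.0 CPM against 43.1, 49.0 and 43.9 CPM, a change of -0.46 (SE 0.14, edgeR adjusted p = 0.0393). WARS1 and XPOT also fell in KP4, by -0.42 (SE 0.14) and -0.54 (SE 0.17). The other synthetases lay between -0.39 and 0.04 in KP4 and between -0.36 and 0.11 in PK45H.

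The transcription factors moved apart. DDIT3, also called CHOP, a C/EBP-family factor linked to cell death, rose in KP4 from 89.1, 65.5 and 69.4 CPM to 193, 227 and 245 CPM, a log2 change of 1.58 (SE 0.18, edgeR adjusted p = 3.66e-05). In PK45H it went from 52.1, 49.7 and 46.2 CPM to 123, 94.1 and 129 CPM, a change of 1.23 (SE 0.16, edgeR adjusted p = 0.000184). Its overlapping neighbour MARS1 differed the other way, by -0.39 in KP4 and -0.36 in PK45H, neither past the threshold. ATF5 rose in KP4 from 19.3, 15.9 and 14.4 CPM to 23.2, 36.7 and 53.9 CPM, by 1.20 (SE 0.26, edgeR adjusted p = 0.00406), and in PK45H from 8.58, 7.97 and 11.5 CPM to 25.7, 29.3 and 18.7 CPM, by 1.39 (SE 0.23, edgeR adjusted p = 0.00122). ATF3 rose in KP4 by 1.64 (SE 0.38, edgeR adjusted p = 0.00652) from a low level, and in PK45H it differed by 1.05 (SE 0.41, edgeR adjusted p = 0.10). JDP2, a repressor of the same family, fell in KP4 by -1.28 (SE 0.34, edgeR adjusted p = 0.015) and in PK45H by -1.53 (SE 0.40, edgeR adjusted p = 0.0193), from 4.60 to 8.14 CPM in the controls. ATF4 fell in KP4 from 271, 286 and 300 CPM to 215, 208 and 237 CPM, by -0.37 (SE 0.11, edgeR adjusted p = 0.0307), and in PK45H it differed by 0.14 (SE 0.13, edgeR adjusted p = 0.51). CEBPG, the partner of ATF4, passed in neither line, at -0.38 and -0.35.

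Of the stress effectors, SESN2 rose in KP4 from 9.65, 6.90 and 10.3 CPM to 13.6, 17.9 and 24.9 CPM, by 1.05 (SE 0.27, edgeR adjusted p = 0.011) and STC2 rose from 5.61, 5.88 and 6.61 CPM to 13.3, 10.98 and 10.3 CPM, by 0.93 (SE 0.24, edgeR adjusted p = 0.0132). VLDLR there read 18.3, 72.7 and 252 CPM against 16.2, 56.5 and 52.1 CPM and did not pass. DDIT4, an mTORC1 inhibitor, was just as uneven in PK45H, at 34.2, 42.5 and 4.03 CPM against 8.58, 11.7 and 13.5 CPM. In PK45H, CHAC1 rose from 11.7, 9.08 and 9.01 CPM to 20.7, 17.9 and 15.4 CPM, by 0.86 (SE 0.26, edgeR adjusted p = 0.0358), and STC2 fell by -0.60 (SE 0.19, edgeR adjusted p = 0.0442). TRIB3 passed in neither line, at 0.20 in KP4 and -0.39 in PK45H. In KP4, 10 members were called in every alternative fit run, each library left out included (AARS1, ASNS, ATF3, ATF5, DDIT3, MTHFD2, PHGDH, PSAT1, SHMT2 and SLC7A5), and 4 did in PK45H (ATF5, DDIT3, PSAT1 and SLC1A4). Without KP4 mCherry + M2rtTA replicate 1, 12 of the 19 KP4 calls were left, and without PK45H mCherry + M2rtTA replicate 3, 4 of the 9 PK45H calls. Without PK45H OVOL2 + M2rtTA replicate 1 or replicate 3, 5 of those 9 were left.

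Without M2rtTA, 8 members were called in each line. In KP4, 2 members rose and 6 fell, against 3.26% and 3.56% of all genes (6.82% in either direction), and in PK45H 5 rose and 3 fell, against 3.58% and 4.81%. DDIT3 rose in KP4 from 75.0, 94.5 and 100 CPM to 150, 163 and 135 CPM, a log2 change of 0.73 (SE 0.17, edgeR adjusted p = 0.0229), and in PK45H from 44.99, 55.5 and 54.99 CPM to 83.4, 105 and 95.0 CPM, a change of 0.83 (SE 0.16, edgeR adjusted p = 0.00516). STC2 rose in KP4 from 7.42, 7.20 and 4.15 CPM to 13.2, 10.3 and 14.1 CPM, by 1.00 (SE 0.24, edgeR adjusted p = 0.0234), and in PK45H by 0.79 (SE 0.19, edgeR adjusted p = 0.0178). PHGDH fell by -0.87 (SE 0.16, edgeR adjusted p = 0.00472) in KP4 and by -0.93 (SE 0.23, edgeR adjusted p = 0.0238) in PK45H, and JDP2 by -1.26 (SE 0.33) and -2.40 (SE 0.45). DDIT3, STC2, PHGDH and JDP2 were the members called the same way in both lines. MARS1, the neighbour of DDIT3, differed by -0.28 in KP4 and 0.09 in PK45H.

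The other calls without M2rtTA were made in KP4 or in PK45H, not both. In KP4, SHMT2 fell from 51.6, 41.4 and 50.01 CPM to 27.2, 33.3 and 27.3 CPM, by -0.70 (SE 0.14, edgeR adjusted p = 0.0108), AARS1 by -0.67 (SE 0.15, edgeR adjusted p = 0.0147), PSAT1 by -0.55 (SE 0.14, edgeR adjusted p = 0.0276) and SLC7A5 by -0.49 (SE 0.12, edgeR adjusted p = 0.0264). In PK45H, SLC7A11, the cystine importer, rose from 27.5, 39.2 and 44.2 CPM to 139, 79.7 and 95.0 CPM, by 1.47 (SE 0.33, edgeR adjusted p = 0.0127). SLC1A4 fell there from 36.6, 26.0 and 37.7 CPM to 14.9, 11.8 and 11.2 CPM, by -1.44 (SE 0.21, edgeR adjusted p = 0.000634). CHAC1 rose in PK45H by 1.04 (SE 0.27, edgeR adjusted p = 0.0313) and WARS1 by 0.45 (SE 0.12, edgeR adjusted p = 0.0348). ATF4 in PK45H read 172, 209 and 218 CPM against 275, 286 and 251 CPM with OVOL2, a change of 0.41 (SE 0.13, edgeR adjusted p = 0.0712). In KP4, leaving out a single mCherry or OVOL2 library left 3 (mCherry replicate 1, OVOL2 replicate 1 or 3), 4 (replicate 2 of either group) or 5 (mCherry replicate 3) of the 8 calls, and PHGDH alone was called in every alternative fit run. In PK45H, DDIT3, JDP2 and SLC1A4 were called in every alternative fit run, and of the 8 calls 4 were left without mCherry replicate 2, OVOL2 replicate 1 or OVOL2 replicate 3, and 5 without mCherry replicate 1 or OVOL2 replicate 2.

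The PANC1 OVOL2 libraries are described beside these with no p-value and nothing read from the counts, since they are set against the mCherry libraries that chose the list. Lying past the threshold in PANC1 were 4 members higher and 2 lower without M2rtTA (2.12% and 2.96% of all genes, 5.08% in either direction) and 2 higher and 9 lower with M2rtTA (5.76% and 8.18%, 13.9% in either direction). DDIT3 read 205, 187 and 237 CPM with OVOL2 against 112, 95.3 and 112 CPM with mCherry. PHGDH read 95.5, 73.6 and 88.5 CPM against 166, 177 and 144 CPM, which overlapped the untreated 85.7, 66.2 and 75.7 CPM. TRIB3, in contrast, read 41.7, 37.2 and 41.5 CPM with OVOL2, overlapping the mCherry libraries. CHAC1 went further up, to 137, 179 and 164 CPM, and STC2 to 106, 93.7 and 151 CPM. The mitochondrially encoded share of counts moved in the same libraries, to 28.3% to 29.1% with OVOL2 from 22.5% to 25.9% with mCherry, and to 30.3% to 31.5% with OVOL2 + M2rtTA from 25.0% to 25.3% with mCherry + M2rtTA, with no overlap; its part in the values was not tested. With OVOL2 + M2rtTA, ASNS read 54.7, 74.5 and 69.6 CPM and PSAT1 142, 185 and 163 CPM, between the untreated and the mCherry + M2rtTA libraries except for the lowest ASNS library, which lay within the untreated range. SHMT2 read 10.99, 10.8 and 13.4 CPM with OVOL2 + M2rtTA against 51.4, 29.7 and 30.4 CPM. ATF3 read 15.3, 13.6 and 19.95 CPM with OVOL2 against 4.28, 4.12 and 3.86 CPM. Without PANC1 OVOL2 + M2rtTA replicate 3, 7 of the 11 members with M2rtTA were left. SLC7A11 in PANC1 OVOL2 read 34.1, 2352 and 56.2 CPM, so its mean rests on replicate 2.

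The OVOL2 effect differed between the arms with and without M2rtTA for a few members. An effect of M2rtTA and a change in the amount of OVOL2 cannot be told apart in this contrast. In KP4 the difference of effects (with minus without M2rtTA) was past the threshold for 2 of 41 members, both negative (0.417% of genes higher, 1.01% lower), and in PK45H for 1 positive and 3 negative of 39 (0.839% and 0.758%). ATF5 differed most: in PK45H it read 6.15, 6.57 and 4.36 CPM with OVOL2 alone and 25.7, 29.3 and 18.7 CPM with OVOL2 + M2rtTA, while the mCherry libraries stayed between 7.87 and 11.7 CPM, a difference of effects of 2.15 (SE 0.35, edgeR adjusted p = 0.0074). In KP4 the ATF5 difference was 1.54 (SE 0.37, edgeR adjusted p = 0.054). PSAT1 differed by -0.96 (SE 0.19, edgeR adjusted p = 0.027) in KP4 and by -0.85 (SE 0.20, edgeR adjusted p = 0.048) in PK45H. STC2 was called higher without M2rtTA and lower with it in PK45H, a difference of -1.39 (SE 0.27, edgeR adjusted p = 0.019). ASNS differed by -0.87 (SE 0.19, edgeR adjusted p = 0.032) in KP4 and AARS1 by -0.91 (SE 0.20, edgeR adjusted p = 0.036) in PK45H. ATF5 in PK45H was called in every alternative fit run. The KP4 count fell to 0 or 1 when any library but mCherry replicate 1 or mCherry + M2rtTA replicate 3 was left out, and the PK45H count to 1 or 2 when any but OVOL2 + M2rtTA replicate 1 was. The PANC1 difference uses the mCherry libraries that chose the list and is given as a description. There 0 members lay past the threshold in edgeR (0.136% of all genes, 0.053% higher and 0.0832% lower) and 1 in DESeq2.

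**Figure D4:**
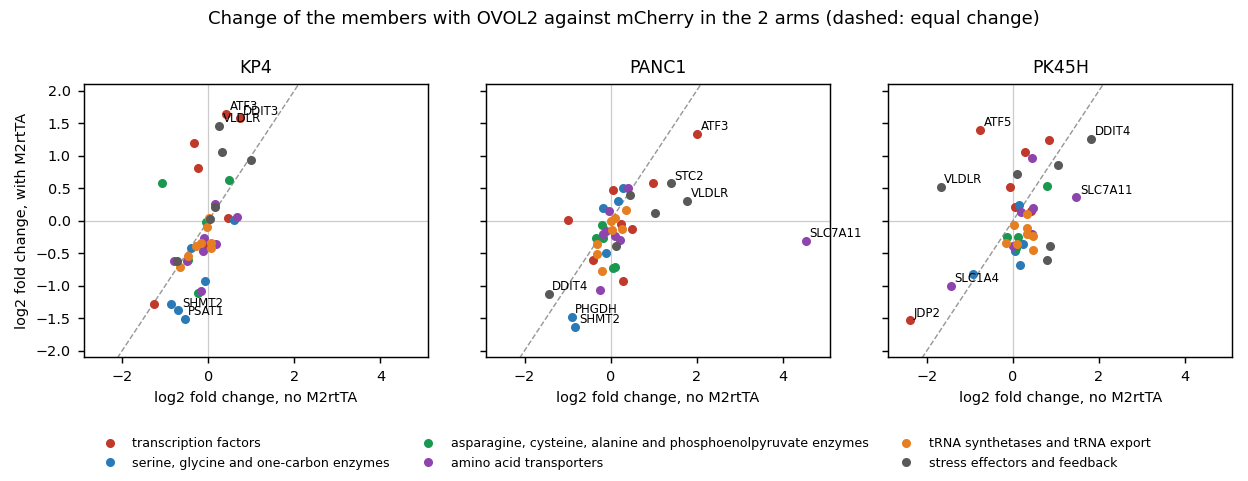
Log2 fold change with OVOL2 against mCherry without M2rtTA (x axis) and with M2rtTA (y axis), a point for each member coloured by role, in KP4, PANC1 and PK45H; the dashed line marks equal change. Points below that line number 27 of 41 in KP4, 31 of 41 in PANC1 and 27 of 39 in PK45H. The share of all genes below the line is not given, so nothing is read from these counts. The PANC1 values also use the mCherry libraries that chose the list. SLC7A11 lies far right in PANC1 through its replicate 2.

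The OVOL2 effect differed between KP4 and PK45H in a small number of members. Without M2rtTA, 3 members had a lower effect in KP4 and 0 a higher one (0.77% and 1% of 14943 genes). AARS1 fell in KP4 from 95.5, 70.2 and 65.5 CPM to 52.2, 47.2 and 45.3 CPM, while in PK45H it read 66.1, 63.7 and 69.7 CPM with mCherry and 98.8, 86.3 and 93.7 CPM with OVOL2, a difference of effects of -1.16 (SE 0.20, edgeR adjusted p = 0.0012). SLC7A5 differed by -0.98 (SE 0.22, edgeR adjusted p = 0.011) and PSAT1 by -0.75 (SE 0.19, edgeR adjusted p = 0.028). With M2rtTA, 1 was higher and 2 lower (1.49% and 1.68%): STC2 by 1.53 (SE 0.33, edgeR adjusted p = 0.0054), SLC6A9, a glycine carrier, by -2.05 (SE 0.51, edgeR adjusted p = 0.018) and PSAT1 by -0.83 (SE 0.19, edgeR adjusted p = 0.0089). The SLC6A9 value leans on PK45H OVOL2 + M2rtTA replicate 1, at 19.6 CPM against 7.001 and 8.77 CPM; without it the difference was -1.42 and 1 member of the 3 was left. Without KP4 OVOL2 replicate 2, 1 of the 3 differences without M2rtTA was left.

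Other genes of the pathway, from lists drawn up with earlier results of these data known, were counted beside the members. Of the further ATF4 targets, 6 rose and 3 fell of 19 tested in KP4 with OVOL2 + M2rtTA, and 6 rose and 2 fell of 19 in PK45H. For these counts and those of the lists that follow, 9.91% of all genes rose and 12.5% fell in KP4, and 7.45% rose and 8.4% fell in PK45H. EIF4EBP1, the translation repressor 4E-BP1, fell by -1.79 (SE 0.16, edgeR adjusted p = 5.16e-06) in KP4 and by -1.44 (SE 0.15, edgeR adjusted p = 3.47e-05) in PK45H. PPP1R15A, the phosphatase subunit that reverses eIF2 phosphorylation, rose in KP4 by 1.43 (SE 0.22, edgeR adjusted p = 0.000468), and VEGFA, an angiogenic factor, rose in PK45H by 1.48 (SE 0.15, edgeR adjusted p = 3.46e-05). Of the cytosolic synthetases that are not members, 1 rose and 4 fell of 13 in KP4 and 1 rose and 3 fell of 13 in PK45H, so the rises were close to the share of all genes. CARS1, IARS1, LARS1, TARS1 and YARS1 are counted in this list and among the further targets, and PPP1R15A among those and the eIF2 genes. FARSB, a subunit of the phenylalanyl synthetase, fell by -1.40 (SE 0.15, edgeR adjusted p = 3.10e-05) and -0.89 (SE 0.17, edgeR adjusted p = 0.00334), and CARS1, the cysteinyl synthetase, rose by 0.44 (SE 0.14, edgeR adjusted p = 0.0391) and 0.57 (SE 0.16, edgeR adjusted p = 0.0289).

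Of the mitochondrial synthetases, 0 rose and 6 fell of 17 in KP4, and 0 rose and 2 fell of 16 in PK45H, with YARS2 at -0.88 (SE 0.28) in PK45H. Of the mitochondrial chaperones and proteases, 3 of 10 fell in each line and 0 rose. HSPD1, the chaperonin HSP60, fell by -1.48 (SE 0.11, edgeR adjusted p = 1.15e-06) in KP4 and by -1.06 (SE 0.21, edgeR adjusted p = 0.00359) in PK45H. Of the endoplasmic reticulum chaperones and ATF6 or XBP1 targets, 0 rose and 1 fell of 18 in KP4, and 5 rose and 1 fell of 18 in PK45H; the test between the lines called no gene of this list with M2rtTA. Of the eIF2 kinases, eIF2, eIF2B and phosphatase subunits, 3 rose and 1 fell of 19 in KP4 and 0 passed in PK45H. After transduction with mCherry in PANC1, given as a description, 3 of 17 further targets were past the threshold as higher. Among them GDF15, a secreted stress cytokine, stood at 1.34 (SE 0.23). Also higher was 1 of 18 endoplasmic reticulum genes, the chaperone HSPA5, at 0.85 (SE 0.17). Of all genes, 0.272% were past the threshold as higher. These libraries chose the list of members, so nothing is read from these counts.

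In untreated cells the lines differed in most members. The edgeR F test over KP4, PK45H, HPAFII and PATU8988S called 32 of 41 members, against 51.5% of 13785 genes. HPAFII was highest of the 5 lines in 21 members, and PK45H was lowest in 16 and PATU8988S in 12. The share of all genes for which each line is highest or lowest is not given here. PANC1, which chose the list, is among the 5 lines, so nothing is read from these counts. SLC1A4 read 39.1, 46.4 and 46.7 CPM in PATU8988S, 25.1, 22.6 and 27.9 CPM in PK45H, 12.6, 11.7 and 14.03 CPM in HPAFII and 9.52, 7.06 and 10.7 CPM in KP4 (edgeR adjusted p = 7.37e-07). No library of one of those lines crossed into another, except that PANC1 at 7.93 to 10.05 CPM overlapped KP4. PCK2 stood at 45.02, 22.7 and 45.1 CPM in HPAFII and at 3.04, 1.37 and 0.598 CPM in PATU8988S, with KP4 and PK45H between at 6.63 to 11.9 CPM (edgeR adjusted p = 9.32e-07).

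ASNS ran in the order HPAFII (103, 70.4 and 116 CPM), KP4, PANC1 (56.9, 41.6 and 43.5 CPM), PATU8988S (38.3, 35.9 and 41.9 CPM) and PK45H (27.6, 22.3 and 25.0 CPM) (edgeR adjusted p = 2.93e-06). HPAFII overlapped KP4 and PANC1 overlapped PATU8988S, and PK45H lay below all other lines. CHAC1 ranged from 54.7, 28.96 and 64.2 CPM in HPAFII to 7.26, 3.88 and 5.21 CPM in PK45H (edgeR adjusted p = 3.08e-06). ATF4 itself varied less, from a mean of 286 CPM in KP4 to 159 CPM in PANC1. HPAFII replicate 2 was lower than the other HPAFII libraries in ASNS, CHAC1 and PCK2, and it had the smallest total; without it 31 members were called.

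**Figure D5:**
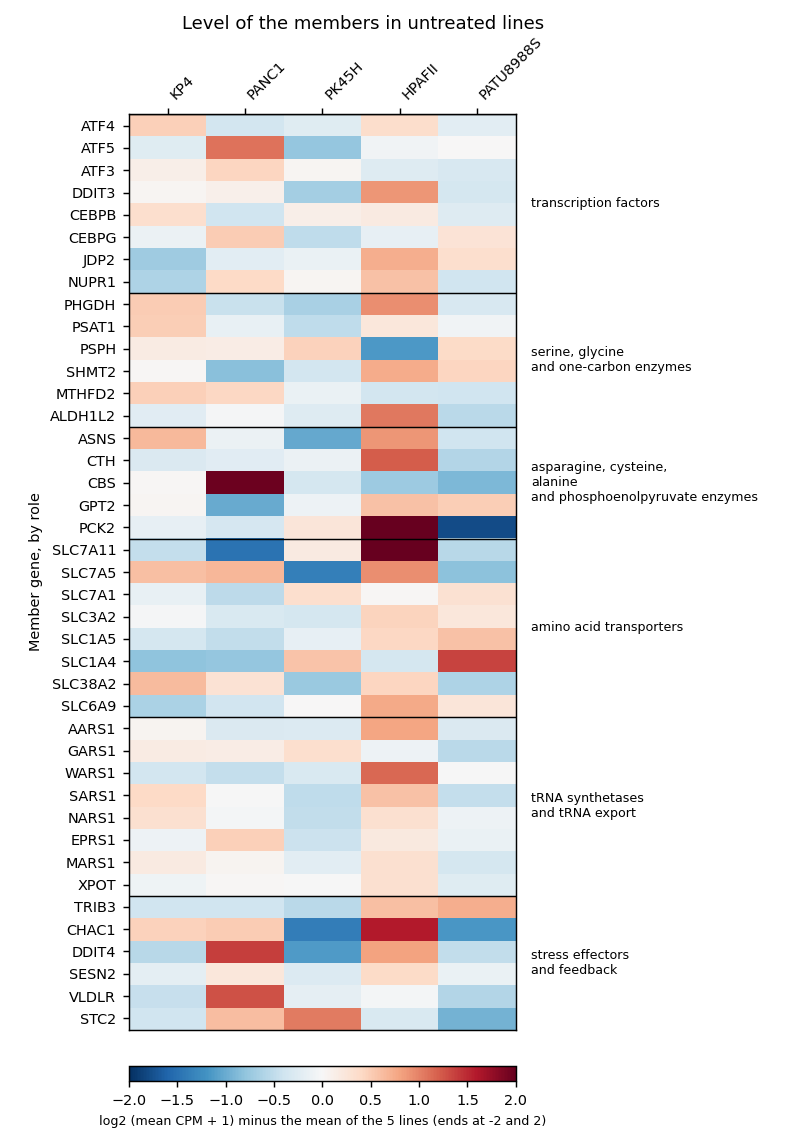
Heatmap of members (rows, by role) in the untreated cells of 5 lines (columns); colour is log2 of the mean CPM plus 1, minus the mean of the lines, ending at -2 and 2. HPAFII is the highest line in 21 members, a count given without the share of all genes. PCK2 runs from a mean of 37.6 CPM in HPAFII to 1.67 CPM in PATU8988S.

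Across the 45 libraries of the 3 transduced lines, with each line's mean taken out, 37 of the other 40 members had a positive Pearson correlation with ATF4. The 45 libraries share lines, controls and scaling, and they include the PANC1 libraries that chose the list. How far the positive values rest on that choice was not tested. The share of all genes with a positive correlation is not given here, so the values are a description only. ASNS was most like ATF4 at 0.81, followed by TRIB3 at 0.80, SLC1A5 at 0.77 and PSAT1 at 0.76. ATF5 stood at -0.49, CBS at -0.27 and VLDLR at -0.06.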

How the data were processed

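PLATE-seq libraries (pooled 3′-end RNA-seq) were made from 100 ng RNA, per the labels' protocols. The authors deposited a table of counts per gene symbol for 51 libraries in 17 groups of 3; kallisto 0.44.0 and GRCh38 are named in the submitters' processing notes, and the counting strand is not given in the sources used here. Each line was fitted with edgeR 4.0.16 (R 4.3.3; trimmed-mean scaling, filterByExpr, quasi-likelihood test) over its 15 libraries. A 45-library fit gave differences between KP4 and PK45H, and the untreated libraries a separate fit. PANC1 libraries were in both of these fits. P-values were Benjamini-Hochberg adjusted over all genes tested, with a threshold of 0.05. The members and lists were chosen with earlier results of these data known.

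Values by library were given for up to 3 members per role and comparison with the largest absolute log2 change and a mean of at least 5 CPM, with added members named where a result turned on them. Alternatives were DESeq2 1.42.0, RLE scaling, other filters, only the groups compared, a replicate block, thinning, robust dispersion and leaving out each library. The scripts were tested on simulated data. No set test was run.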

Additional observations from a re-analysis of the deposited data

Results flagged for a closer look

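These results were singled out because the effect of OVOL2 itself differed, by edgeR's test of the difference with Benjamini-Hochberg adjustment over all genes, between libraries with and without M2rtTA or between KP4 and PK45H. With minus without M2rtTA, the KP4 effect differed by -0.96 on the log2 scale for PSAT1 (adjusted p = 0.027) and by -0.87 for ASNS (adjusted p = 0.032). In PK45H it differed by 2.15 for ATF5 (adjusted p = 0.0074), -0.85 for PSAT1 (adjusted p = 0.048), -0.91 for AARS1 (adjusted p = 0.036) and -1.39 for STC2 (adjusted p = 0.019). In KP4 minus PK45H without M2rtTA, the effect differed by -0.75 for PSAT1 (adjusted p = 0.028), -0.98 for SLC7A5 (adjusted p = 0.011) and -1.16 for AARS1 (adjusted p = 0.0012). With M2rtTA it differed by -0.83 for PSAT1 (adjusted p = 0.0089), -2.05 for SLC6A9 (adjusted p = 0.018) and 1.53 for STC2 (adjusted p = 0.0054). Of these, ATF5 in PK45H, AARS1 between the lines without M2rtTA and STC2 between the lines with M2rtTA were called in every alternative fit run.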

How the results depend on the processing

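Of 95 member changes past the threshold, 45 were called in every alternative fit run and 0 changed direction; of 1402 alternative values 1090 kept the call and 312 lost it. Counts of members moved by more than 1.5 times as follows, and the cause was not tested. With no low-count filter, OVOL2 in KP4 gave 5 members (8 in the report), the M2rtTA change 0 in KP4 (2) and 2 in PK45H (4). With a filter at a mean count of 10, PANC1 mCherry + M2rtTA against untreated gave 14 (9), and with robust dispersion, chosen after seeing the data, also 14. Thinning to the smallest library gave 2 for the M2rtTA change in PK45H. Fitting only the groups compared gave 4 for OVOL2 in KP4, 1 for the M2rtTA change in KP4, 7 and 5 for PANC1 mCherry without and with M2rtTA against untreated, 7 for OVOL2 + M2rtTA in PANC1, 4 for OVOL2 in PK45H and 1 for KP4 minus PK45H with M2rtTA. DESeq2 gave 1 for mCherry + M2rtTA against untreated in KP4, 4 for the M2rtTA change in KP4, 16 for PANC1 mCherry + M2rtTA against untreated, 1 for the M2rtTA change in PANC1, and 1 each for PK45H mCherry without and with M2rtTA against untreated. The promoter share over all genes was 3.87% with only the bases before the start. Same-numbered libraries did not deviate together (mean correlation from -0.0193 to 0.0169 over the fits), so the numbers are not treated as pairs; with the replicate block the M2rtTA change gave 1 member in KP4 and 2 in PK45H, and no other member count moved by more than 1.5 times.

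Leaving out each library gave 3 to 5 members for OVOL2 in KP4 and 12 to 15 with M2rtTA, 4 to 6 and 4 to 7 in PK45H, 6 to 7 and 7 to 9 in PANC1; 7 to 10 and 6 to 8 for PANC1 mCherry without and with M2rtTA against untreated; 0 to 2 and 1 to 3 for the M2rtTA change in KP4 and PK45H; 1 to 3 for KP4 minus PK45H with or without M2rtTA; and 27 to 31 for untreated lines. Over all genes, fitting only the groups compared gave 532 genes for OVOL2 in KP4 (932), 302 in PANC1 (671), 628 in PK45H (1139), 1424 with M2rtTA in PK45H (2153), 123 and 153 for KP4 minus PK45H (265 and 474), 23 and 18 for PANC1 transduction (79 and 60) and 8 for the M2rtTA change in PANC1 (18). DESeq2 gave 192 and 155 for PANC1 transduction, 444, 132 and 503 for the M2rtTA change in KP4 (195), PANC1 and PK45H (217), and 11, 62, 22 and 36 for transduction without and with M2rtTA in KP4 and PK45H. The block gave 112 and 116 for the M2rtTA change in KP4 and PK45H, and thinning 4733 for untreated lines (7101). Depth limits the members with few counts: 6 had 3 counts or fewer in at least 1 library.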
